A study of Mus musculus with 24 samples.

Results

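Amino acid carriers set how much nutrient a T cell can take in once it is activated, and 9 genes that encode such carriers at the plasma membrane are described here in mouse CD4+ T cells: Slc7a5, Slc3a2, Slc1a5, Slc1a4, Slc7a1, Slc7a6, Slc38a1, Slc38a2 and Slc43a1. They were chosen by symbol, with no measured value used in the rule, but with earlier results of these data known. Each symbol matched 1 of the 54446 Ensembl identifiers of the count table. All 9 had enough counts to be among the 15325 genes tested. The messenger RNA came from splenic CD4+ T cells of C57BL6 mice that were either wild type (WT, mice 1, 3 and 4) or deficient in Aim2 (Aim2-/-, mice 1, 2 and 4), the gene of a protein that detects DNA in the cytosol. From each mouse, cells were taken unstimulated (0 h, named control in the labels) or after 3, 6 or 24 h of culture with anti-CD3 and anti-CD28, antibodies that trigger the T cell receptor and its costimulatory partner, so that 24 libraries fell into 8 groups of 3. The question was how stimulation and Aim2 deficiency relate to transporter messenger RNA. The paper of the study describes RNA-seq of other T cell preparations, so its general methods are assumed, not stated, to hold for these libraries. By those methods, both genotypes were bred in 1 facility and cohoused, mice were matched for sex and age, and CD4+ cells were enriched by removing other cells with antibody-coated beads, so some cells of other types can remain. The labels name no cell type to which the Aim2 deficiency is limited. No ages are given in the labels.

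A resting T cell has a low demand for amino acids. After its antigen receptor is engaged, it grows and makes protein, and it takes up leucine, glutamine, arginine, serine and others at a higher rate through carriers that work by different principles. Heteromeric exchangers pair the CD98 heavy chain (Slc3a2) with a light chain such as LAT1 (Slc7a5) or y+LAT2 (Slc7a6), and swap 1 amino acid for another. The exchangers ASCT2 (Slc1a5) and ASCT1 (Slc1a4) trade small neutral amino acids with sodium, CAT1 (Slc7a1) lets arginine and lysine in, SNAT1 (Slc38a1) and SNAT2 (Slc38a2) use sodium to accumulate glutamine, alanine and relatives, and LAT3 (Slc43a1) lets branched-chain amino acids pass along their gradient.

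Total gene counts ranged from 19715161 to 21627018 per library, and the 9 genes together held between 0.175 and 0.300% of them. CPM are counts scaled to a common library size with TMM factors, which allow for differences in composition, FDR is the p of edgeR's test adjusted over all genes tested, SE is the standard error of a log2 change, and 3 counts, taken as the floor of detection, corresponded to 0.129 to 0.155 CPM, below every value given here for the 9 genes. The floor covers counting error only. Aim2 was measured first as a check of the labels. It lay between 32.5 and 75 CPM in the 8 libraries of WT mice 3 and 4, between 5.28 and 20.1 CPM in the 12 Aim2-/- libraries, and between 5.57 and 21.5 CPM in the 4 libraries of the mouse labelled WT 1, which therefore goes against its label; differences between the genotypes are given with and without this mouse. The 6 CD4 T cell markers (Cd3d, Cd3e, Cd3g, Cd4, Trac and Lck) summed to between 2759 and 4259 CPM in all libraries. Markers of several other cell types were higher at 0 h in Aim2-/- libraries, and their values are given beside the genotype differences. In RNA from a bulk preparation, fewer cells of a type cannot be told apart from less RNA per cell.

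Before stimulation the carriers differed widely in level. CPM per kb of exon, used here to compare genes, divides by the length of all annotated exons of a gene. Which transcripts the cells expressed was not measured, so the order of genes can depend on that length. On this scale, unstimulated WT cells held Slc3a2 at 107 ± 7.98 (SD, n = 3), Slc1a5 at 74.0 ± 8.03 and Slc38a2 at 63.9 ± 1.49. Slc7a6 (31.0 ± 2.38) and Slc7a5 (27.6 ± 3.86) came next and overlapped, as did Slc38a1 (12.3 ± 0.836) and Slc7a1 (11.5 ± 0.911), and Slc1a4 (1.17 ± 0.612) and Slc43a1 (0.370 ± 0.0663) were lowest. At 3 and 6 h the WT order began with Slc1a5 (155 ± 36.4 and 239.6 ± 29.5), Slc3a2 (94.2 ± 8.42 and 119 ± 9.31) and Slc7a5 (45.1 ± 11.1 and 76.1 ± 4.87), and Slc7a5 overlapped its next gene, Slc38a2, at 3 h. After 24 h Slc1a5 led at 165 ± 7.99 CPM per kb, followed by Slc7a5 at 103 ± 8.01 and Slc3a2 at 84.1 ± 0.795. Slc7a6 (29.8 ± 1.86) and Slc38a2 (28.1 ± 0.492) overlapped at that time, as did Slc38a1 (23.9 ± 1.55) with Slc7a1 (21.8 ± 1.90) and Slc1a4 (3.09 ± 0.247) with Slc43a1 (2.65 ± 0.248). Aim2-/- cells had the same 3 genes on top, with Slc3a2 at 156 ± 13.5, Slc1a5 at 82.8 ± 3.66 and Slc38a2 at 59.6 ± 4.99 CPM per kb at 0 h; at 24 h Slc1a5 led at 173 ± 7.26, and Slc3a2 (87.5 ± 4.02) and Slc7a5 (83.6 ± 19.5) overlapped.

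**Figure D1:**
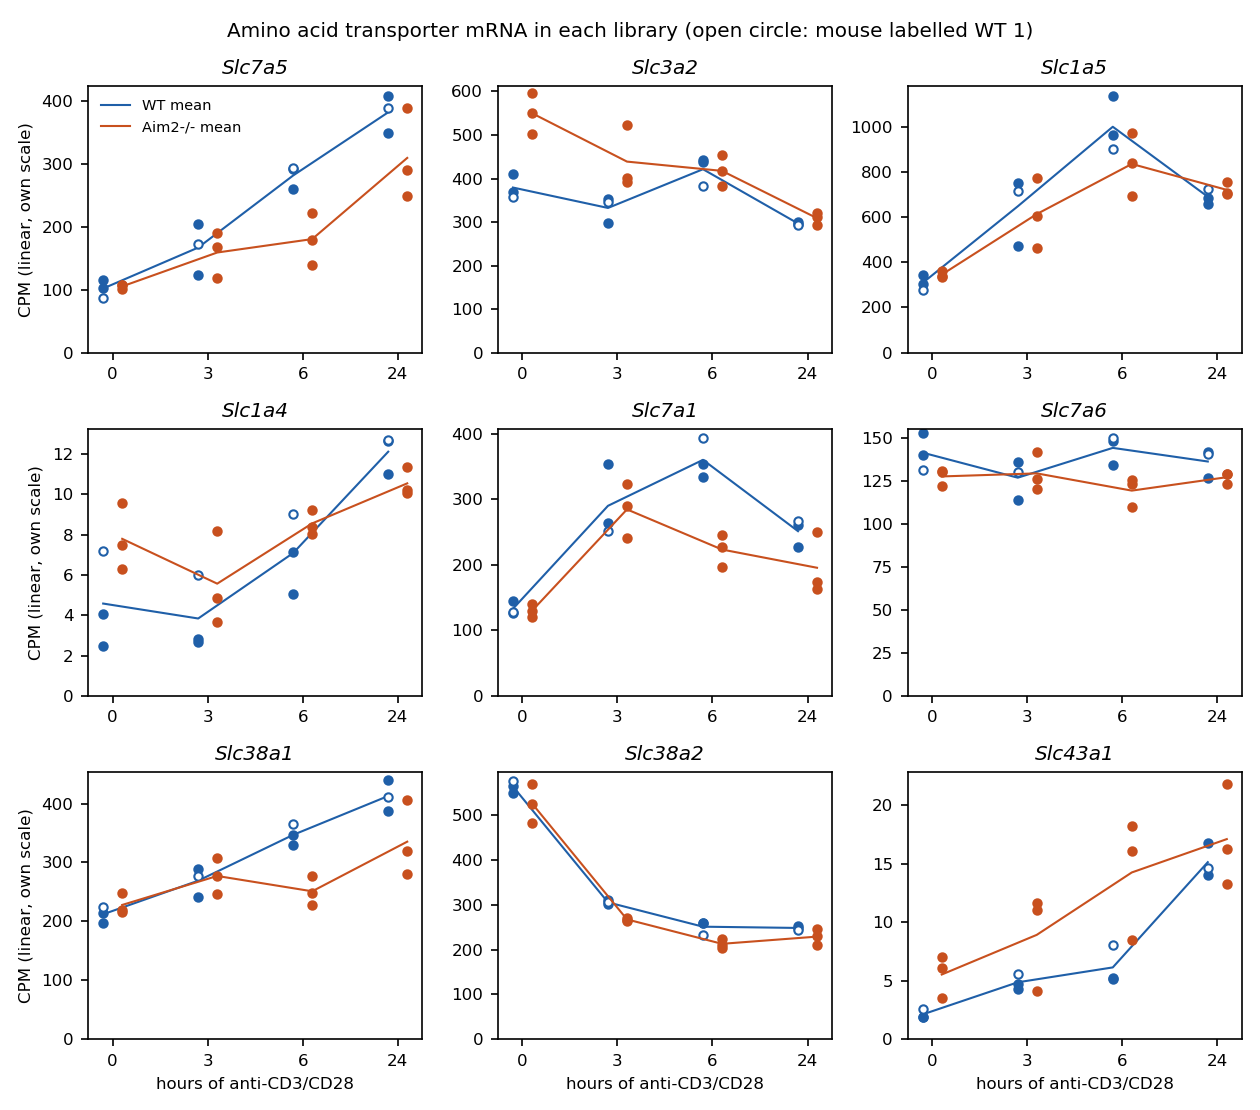
Each panel plots 1 transporter gene in CPM on a linear axis of its own that starts at 0, against hours of stimulation, evenly spaced; each point is 1 library, lines join the means of the 3 mice of a genotype (WT blue, Aim2-/- orange), and open circles mark the mouse labelled WT 1. Slc7a5, Slc1a5, Slc7a1 and Slc43a1 lie higher after stimulation in both genotypes, Slc38a2 lies lower in every stimulated library, and Slc7a6 stays between 110 and 153 CPM.

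Slc7a5 (ENSMUSG00000040010, chr8:121881150-121907694, minus strand; build GRCm38, as for all positions here) encodes LAT1, the light chain that brings leucine and other large neutral amino acids into the cell in exchange for amino acids such as glutamine. The WT libraries (mice 1, 3 and 4) held 87.4, 103 and 116 CPM at 0 h, 173, 205 and 124 after 3 h, 294, 292 and 261 after 6 h and 389, 409 and 350.4 after 24 h. The Aim2-/- libraries (mice 1, 2 and 4) held 108, 101 and 107 CPM at 0 h, 119.6, 168 and 191 after 3 h, 139.5, 223 and 180.1 after 6 h and 249, 390.2 and 291 after 24 h. Every stimulated library of a genotype lay above all of its unstimulated ones, and the level was highest at 24 h in each mouse. On the log2 scale of the fit, the WT rise over 0 h was 0.71 (SE 0.20, FDR = 0.00751) at 3 h, 1.47 (SE 0.20, FDR = 2.50e-06) at 6 h and 1.91 (SE 0.20, FDR = 2.66e-08) at 24 h. The Aim2-/- rise was 0.60 (SE 0.20, FDR = 0.0247), 0.78 (SE 0.20, FDR = 0.00225) and 1.56 (SE 0.20, FDR = 5.17e-07) at the same times. Of the rises over 0 h, that at 3 h was the least secure, since leaving out single mice ended its call in both genotypes. The 8 alternatives of other kinds all kept the call. With the mouse as a block the FDR was 7.74e-04 in WT and 0.00449 in Aim2-/- cells. The WT call was lost without the mouse labelled WT 1 (FDR = 0.116), mouse WT 3 (0.17), the 0 h library of mouse 1 (0.0565) or the 3 h library of mouse 3 (0.0620), and the Aim2-/- call without mouse 2 (0.0938), mouse 4 (0.243) or any single library but the 3 h one of mouse 1 (FDR up to 0.141). In the later steps of the main fit the WT call came before 6 h and the Aim2-/- call after it. Whether the genotypes differ in these steps was not tested, and other settings called the WT step after 6 h as well. Between 3 and 6 h Slc7a5 rose by 0.75 (SE 0.19, FDR = 0.00670) in WT cells, a call lost without the 3 h library of mouse 4 (0.0549), the mouse labelled WT 1 (0.0501) or mouse WT 4 (0.0954), whereas the Aim2-/- value was 0.18 (SE 0.19, FDR = 0.551). Between 6 and 24 h the Aim2-/- level rose by 0.78 (SE 0.19, FDR = 0.00208), and the WT value was 0.44 (SE 0.19, FDR = 0.0576). The latter passed with the mouse as a block (FDR = 0.0127), with only the libraries compared (0.00269) and with no filter on low counts (0.0270).

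Slc3a2 (ENSMUSG00000010095, chr19:8706882-8723369, minus strand) encodes CD98hc, the heavy chain that carries LAT1 and y+LAT2 to the plasma membrane, and its messenger RNA did not follow that of Slc7a5. Levels in WT mice 1, 3 and 4 were 359, 368 and 411 CPM at 0 h, 345, 354 and 298 after 3 h, 384, 439 and 442 after 6 h and 294, 299.7 and 297 after 24 h. Levels in Aim2-/- mice 1, 2 and 4 were 597, 502 and 551 CPM at 0 h, 402, 392 and 523 after 3 h, 383, 453 and 417 after 6 h and 311, 294 and 322 after 24 h. At 24 h every library of either genotype lay below all of its unstimulated ones, at 6 h those of WT overlapped them and those of Aim2-/- lay below. In WT cells the log2 change from 0 h was -0.19 (SE 0.11, FDR = 0.186) at 3 h, 0.15 (SE 0.11, FDR = 0.247) at 6 h and -0.35 (SE 0.11, FDR = 0.00544) at 24 h, the last of which was a fall. Slc3a2 fell in Aim2-/- cells at all 3 times, with log2 changes of -0.33 (SE 0.11, FDR = 0.0236), -0.40 (SE 0.11, FDR = 0.00358) and -0.83 (SE 0.11, FDR = 5.54e-07). The 24 h falls held in every alternative that was run, and the earlier ones did not. The Aim2-/- fall at 3 h lost its call without mouse 1 (FDR = 0.261), without mouse 2 (0.0750), without the 0 h library of mouse 1 (0.0869) or the 3 h library of mouse 1 (0.102) or mouse 2 (0.114), with scaling to library totals (0.113), with no filter on low counts (0.0765) and with only the libraries compared (0.122); that at 6 h lost it without mouse 1 (0.0841). From 3 to 6 h the WT level rose by 0.34 (SE 0.11, FDR = 0.0215), which was not called without mouse WT 3 (0.14), mouse WT 4 (0.307), the 3 h library of mouse 4 (0.122) or the 6 h library of mouse 3 (0.0812) or 4 (0.0754), and the Aim2-/- value was -0.072 (SE 0.11, FDR = 0.681). The heavy chain gene then fell in both genotypes from 6 to 24 h, with a log2 change of -0.51 (SE 0.11, FDR = 3.78e-04) in WT and -0.43 (SE 0.11, FDR = 0.00172) in Aim2-/- cells.

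Slc7a6 (ENSMUSG00000031904, chr8:106168857-106198706, plus strand) encodes y+LAT2, another partner of CD98hc, which exports arginine in exchange for neutral amino acids and sodium. WT mice 1, 3 and 4 had 131, 153 and 140.1 CPM at 0 h, 130.5, 136 and 114 after 3 h, 150.1, 148 and 134 after 6 h and 141, 142 and 127 after 24 h. Aim2-/- mice 1, 2 and 4 showed 122, 131 and 130.1 CPM at 0 h, 120.2, 126 and 142 after 3 h, 109.8, 123 and 125 after 6 h and 124, 129 and 129 after 24 h. The groups overlapped at every step within a genotype. No change from 0 h was called in either genotype: the log2 values ranged from -0.16 (SE 0.084, WT at 3 h) to 0.028 (SE 0.084, WT at 6 h), with FDR from 0.17 to 0.961. From 3 to 6 h the WT value was 0.18 (SE 0.084, FDR = 0.118), with a call when the mouse was a block (FDR = 0.0309).

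The ratio of heavy chain to light chain messenger RNA changed within every mouse. Slc3a2 over Slc7a5, in CPM per kb, was 3.93 ± 0.331 (SD, n = 3) in WT cells at 0 h, 2.15 ± 0.363 after 3 h, 1.58 ± 0.202 after 6 h and 0.818 ± 0.0629 after 24 h. The Aim2-/- ratios were 5.47 ± 0.299, 2.95 ± 0.541, 2.48 ± 0.375 and 1.09 ± 0.269. All 3 Aim2-/- ratios exceeded all 3 WT ratios at 0 h and again at 6 h (at least 2.13 against at most 1.78). At 3 and 24 h the genotypes overlapped. Among the light chains, Slc7a5 over Slc7a6 was 0.891 ± 0.113 at 0 h and 3.46 ± 0.0802 at 24 h in WT cells, and 1.02 ± 0.0712 and 3.00 ± 0.650 in Aim2-/- cells. With 3 mice a genotype an exact permutation test of 1 such ratio cannot give a p below 0.1, so none is given.

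**Figure D2:**
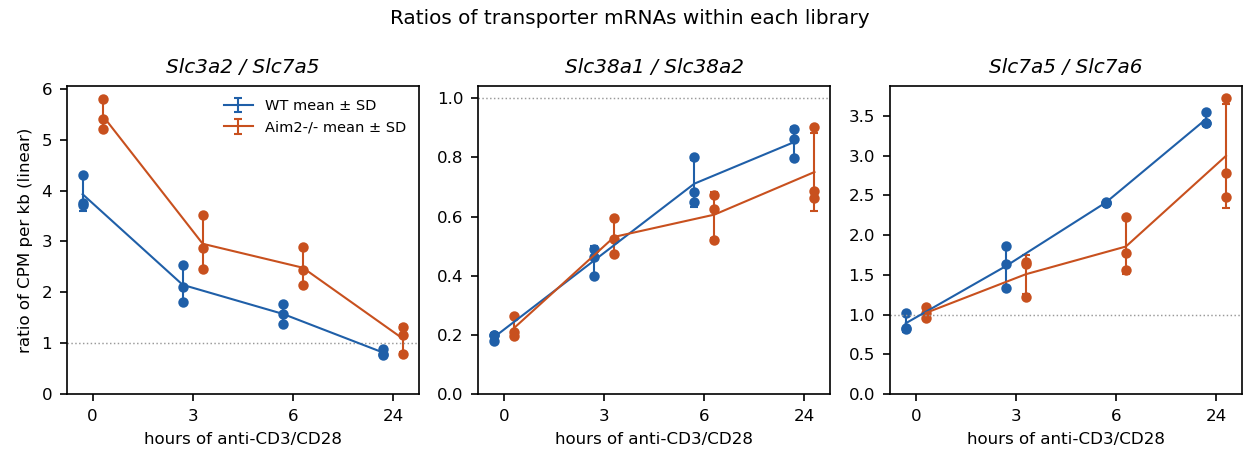
Ratios of 2 transporter messenger RNAs within a library, each in CPM per kb of exon, on linear axes from 0, against hours of stimulation, evenly spaced; points are libraries, lines are means with SD over 3 mice (WT blue, Aim2-/- orange), and the dotted line marks a ratio of 1. The Slc3a2 to Slc7a5 ratio goes down over the time course in both genotypes and the Slc38a1 to Slc38a2 and Slc7a5 to Slc7a6 ratios go up.

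Slc1a5 (ENSMUSG00000001918, chr7:16781340-16798274, plus strand) encodes ASCT2, which imports glutamine in exchange for other neutral amino acids, and its mean CPM per kb was the highest of the 9 at 3, 6 and 24 h in both genotypes. In Aim2-/- cells at 3 h it overlapped Slc3a2, which was the higher of the pair in mouse 1 (114 against 111 CPM per kb). The WT libraries (mice 1, 3 and 4) held 278, 345 and 304 CPM at 0 h, 717, 753 and 474 after 3 h, 901, 1137 and 962 after 6 h and 725, 659 and 686 after 24 h. The Aim2-/- libraries (mice 1, 2 and 4) held 362, 333 and 341 CPM at 0 h, 462, 605 and 773 after 3 h, 694, 838 and 974 after 6 h and 706, 700.2 and 755 after 24 h. All stimulated libraries lay above all unstimulated ones within a genotype. The WT level rose by 1.07 (SE 0.17, FDR = 5.15e-05) at 3 h, 1.69 (SE 0.17, FDR = 5.95e-08) at 6 h and 1.16 (SE 0.17, FDR = 3.46e-06) at 24 h, on the log2 scale against 0 h. The Aim2-/- rises were 0.83 (SE 0.17, FDR = 8.11e-04), 1.27 (SE 0.17, FDR = 2.96e-06) and 1.06 (SE 0.17, FDR = 1.16e-05). WT cells had their highest levels at 6 h: the level rose from 3 to 6 h by 0.63 (SE 0.17, FDR = 0.00905) and fell from 6 to 24 h by 0.53 (SE 0.17, FDR = 0.0103). The peak thus rested on calls that single mice could end. The first of these calls was lost without mouse WT 3 (FDR = 0.0593), mouse WT 4 (0.15), the 3 h library of mouse 4 (0.0714) or the 6 h library of mouse 3 (0.0570), and the second without mouse WT 3 (0.109) or its 6 h library (0.0541). The Aim2-/- step from 3 to 6 h was 0.45 (SE 0.17, FDR = 0.0614). It was called with the mouse as a block (FDR = 0.0117), with scaling to library totals (0.0468) and under voom (0.0498). It was also called without the 3 h library of mouse 4 (0.00957) or the 6 h library of mouse 1 (0.0302). The Aim2-/- step from 6 to 24 h was -0.21 (SE 0.17, FDR = 0.297).

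Slc1a4 (ENSMUSG00000020142, chr11:20302180-20332713, minus strand) encodes ASCT1, a related exchanger of serine, alanine, cysteine and threonine, and was far less abundant. Levels in WT mice 1, 3 and 4 were 7.20, 2.48 and 4.06 CPM at 0 h, 6.02, 2.83 and 2.66 after 3 h, 9.05, 7.16 and 5.06 after 6 h and 12.7, 11.0 and 12.6 after 24 h. Levels in Aim2-/- mice 1, 2 and 4 were 9.59, 6.30 and 7.48 CPM at 0 h, 8.17, 4.86 and 3.67 after 3 h, 8.39, 9.24 and 8.04 after 6 h and 11.3, 10.2 and 10.1 after 24 h. At 24 h all 3 libraries of either genotype exceeded all unstimulated ones. Against 0 h the WT log2 values were -0.25 (SE 0.35, FDR = 0.633) at 3 h, 0.63 (SE 0.35, FDR = 0.138) at 6 h and 1.40 (SE 0.35, FDR = 0.00117) at 24 h, so that only the last was called in the unblocked fit. The mouse labelled WT 1 had the highest WT level at each of 0, 3, 6 and 24 h. Without it the 6 h value was 0.90 (FDR = 0.0324), without its 0 h library alone the FDR was 0.0165, and with the mouse as a block it was 0.0213. The Aim2-/- values were -0.48 (SE 0.34, FDR = 0.322), 0.14 (SE 0.34, FDR = 0.766) and 0.44 (SE 0.34, FDR = 0.256). The WT steps from 3 to 6 h, 0.88 (SE 0.35, FDR = 0.0682), and from 6 to 24 h, 0.77 (SE 0.34, FDR = 0.0574), were called with the mouse as a block (0.00500 and 0.00367), as was the Aim2-/- step from 3 to 6 h, 0.62 (SE 0.34, FDR = 0.209), with a blocked FDR of 0.0318. Both WT steps were also called by DESeq2 (0.0413 and 0.0404), by voom (0.0462 and 0.0179) and with no filter on low counts (0.0221 and 0.0343). With only the libraries compared, the second WT step was called (0.0126). Without the mouse labelled WT 1, both WT steps were called (FDR = 0.0209 and 0.0189), and the first was also called without its 3 h library (0.0102) or the 6 h library of mouse 4 (0.0466), the second without the 6 h library of mouse 1 (0.0393).

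Slc7a1 (ENSMUSG00000041313, chr5:148327410-148399904, minus strand) encodes CAT1, the main entry route of arginine and lysine. WT mice 1, 3 and 4 had 128, 126 and 145 CPM at 0 h, 252, 354 and 265 after 3 h, 394, 354 and 334 after 6 h and 268, 260.4 and 227 after 24 h. Aim2-/- mice 1, 2 and 4 showed 140.1, 129.6 and 119.9 CPM at 0 h, 241, 289 and 324 after 3 h, 197, 246 and 227 after 6 h and 163, 250.3 and 174 after 24 h. No stimulated library overlapped the unstimulated ones of its genotype. WT cells rose by 1.13 (SE 0.15, FDR = 8.82e-06) at 3 h, 1.44 (SE 0.15, FDR = 1.19e-07) at 6 h and 0.92 (SE 0.15, FDR = 1.71e-05) at 24 h on the log2 scale. Aim2-/- cells rose by 1.13 (SE 0.15, FDR = 1.18e-05), 0.78 (SE 0.15, FDR = 2.15e-04) and 0.59 (SE 0.15, FDR = 0.00176), with the last call lost without mouse 2 (0.0564). WT levels were highest at 6 h in mice 1 and 4 and level between 3 and 6 h in mouse 3. From 6 to 24 h they fell by 0.52 (SE 0.15, FDR = 0.00617), and the WT step from 3 to 6 h was 0.31 (SE 0.15, FDR = 0.143), called without the 3 h library of mouse 3 (0.0332). In Aim2-/- mice the highest level came at 3 h in each mouse. Their step from 3 to 6 h was -0.35 (SE 0.15, FDR = 0.104), called a fall with the mouse as a block (FDR = 0.0417) and with no filter on low counts (0.0285). That from 6 to 24 h was -0.19 (SE 0.15, FDR = 0.297), called a fall without the 24 h library of mouse 2 (0.0244).

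Slc38a1 (ENSMUSG00000023169, chr15:96571418-96642913, minus strand) and Slc38a2 (ENSMUSG00000022462, chr15:96687392-96699730, minus strand) lie near each other on chromosome 15 and encode SNAT1 and SNAT2, and by 24 h their messenger RNAs had gone opposite ways. For Slc38a1, the WT libraries measured 225, 197 and 214 CPM at 0 h, 277, 288 and 241 after 3 h, 365, 346 and 329.6 after 6 h and 411, 441 and 387 after 24 h (mice 1, 3 and 4). The Aim2-/- libraries measured 247, 219 and 217 at 0 h, 247, 277 and 307 after 3 h, 228, 277 and 247 after 6 h and 280.1, 407 and 319 after 24 h (mice 1, 2 and 4). WT levels at 6 and 24 h lay above every earlier WT library, while Aim2-/- levels at 3 and 6 h overlapped those at 0 h. The WT rise was 0.34 (SE 0.12, FDR = 0.0297) at 3 h, 0.71 (SE 0.12, FDR = 3.35e-05) at 6 h and 0.96 (SE 0.12, FDR = 2.86e-07) at 24 h. The 3 h call was lost without any 1 of the 3 mice (FDR from 0.0848 to 0.381), without any single library but the 3 h one of mouse 4 (up to 0.164) and with RLE size factors (0.0507). For Aim2-/- cells the values were 0.28 (SE 0.12, FDR = 0.0765) at 3 h, 0.14 (SE 0.12, FDR = 0.339) at 6 h and 0.56 (SE 0.12, FDR = 2.72e-04) at 24 h. The first of them was called with the mouse as a block (FDR = 0.0368), with scaling to library totals (0.00865), without mouse 1 (0.0150) and without its 3 h library (0.0417).

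From 3 to 6 h Slc38a1 rose by 0.37 (SE 0.12, FDR = 0.0257) in WT cells, which was not called without any 1 of the 3 mice (FDR from 0.113 to 0.21), the 3 h library of mouse 4 (0.135) or the 6 h library of mouse 1 (0.0804) or 3 (0.0640). The Aim2-/- value for that step was -0.14 (SE 0.12, FDR = 0.423). From 6 to 24 h the WT value was 0.25 (SE 0.12, FDR = 0.0731), called with the mouse as a block (FDR = 0.0355) and with only the libraries compared (0.0387). The Aim2-/- rise over that step was 0.42 (SE 0.12, FDR = 0.00516), a call lost without the 24 h library of mouse 2 (0.0602) and with only the libraries compared (0.0533).

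For Slc38a2, the WT libraries measured 577, 565 and 551 CPM at 0 h, 305, 301 and 310.4 after 3 h, 234, 260.0 and 260.0 after 6 h and 244, 253 and 249 after 24 h. The Aim2-/- libraries measured 483, 571 and 526 at 0 h, 267, 272 and 264 after 3 h, 225, 211 and 203 after 6 h and 209.8, 231 and 246 after 24 h. Its lowest unstimulated library stood far above its highest stimulated one in both genotypes. The WT log2 changes were -0.89 (SE 0.074, FDR = 1.90e-08) at 3 h, -1.17 (SE 0.075, FDR = 1.27e-10) at 6 h and -1.18 (SE 0.075, FDR = 9.82e-12) at 24 h, and the Aim2-/- changes were -0.98 (SE 0.074, FDR = 1.14e-08), -1.31 (SE 0.075, FDR = 5.91e-11) and -1.20 (SE 0.075, FDR = 1.16e-11). These 6 calls held in every alternative that was run. From 3 to 6 h Slc38a2 fell further, with a log2 change of -0.28 (SE 0.074, FDR = 0.00718) in WT cells, a call lost without any 1 of the 3 mice (0.0559 to 0.112) or with no filter on low counts (0.134), and of -0.33 (SE 0.074, FDR = 0.00312) in Aim2-/- cells, lost with only the libraries compared (0.0571). From 6 to 24 h the values were -0.016 (SE 0.074, FDR = 0.865) and 0.11 (SE 0.074, FDR = 0.239), the latter called without mouse 1 (0.0448). The balance between the 2 SNAT genes shifted in every mouse. The ratio of Slc38a1 to Slc38a2 in CPM per kb went from 0.193 ± 0.0124 (SD, n = 3) at 0 h to 0.852 ± 0.0492 at 24 h in WT cells and from 0.224 ± 0.0347 to 0.750 ± 0.132 in Aim2-/- cells. On that scale it was under 1 in all 24 libraries, with exon lengths of 17236 bases for Slc38a1 and 8838 for Slc38a2. In CPM, without division by length, the WT mean at 24 h was higher for Slc38a1 (413) than for Slc38a2 (248).

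Slc43a1 (ENSMUSG00000027075, chr2:84838850-84863594, plus strand) encodes LAT3, a sodium-independent carrier of leucine, isoleucine, valine, phenylalanine and methionine. The WT libraries (mice 1, 3 and 4) held 2.55, 1.91 and 1.88 CPM at 0 h, 5.60, 4.72 and 4.25 after 3 h, 8.03, 5.26 and 5.11 after 6 h and 14.6, 14.0 and 16.7 after 24 h. The Aim2-/- libraries (mice 1, 2 and 4) held 7.02, 3.50 and 6.05 CPM at 0 h, 11.6, 4.08 and 11.1 after 3 h, 18.2, 8.46 and 16.1 after 6 h and 21.8, 13.2 and 16.3 after 24 h. Every stimulated WT library lay above all unstimulated WT ones, and of the stimulated Aim2-/- libraries 1, the 3 h library of mouse 2, lay within the 0 h range. The WT rise was 1.20 (SE 0.36, FDR = 0.0146) at 3 h, 1.54 (SE 0.36, FDR = 0.00126) at 6 h and 2.84 (SE 0.37, FDR = 5.90e-07) at 24 h, when the fitted fold was 7.14, the highest among the 9 genes. The 3 h call was lost without any 1 of the 3 mice (FDR from 0.0685 to 0.112), without the 0 h library of mouse 3 (0.0538) or 4 (0.0557) or the 3 h library of mouse 1 (0.0542), and under voom (0.0954). Mouse 2 had the lowest Aim2-/- level at each time. The Aim2-/- values were 0.69 (SE 0.34, FDR = 0.136) at 3 h, 1.37 (SE 0.34, FDR = 0.00206) at 6 h and 1.63 (SE 0.34, FDR = 2.48e-04) at 24 h, and the first was called with the mouse as a block (FDR = 0.00538), without mouse 2 (0.0189) and without its 3 h library (0.0149). The WT step from 6 to 24 h was 1.30 (SE 0.34, FDR = 0.00255), not called without mouse WT 4 (0.0515), and the Aim2-/- value was 0.26 (SE 0.33, FDR = 0.518). From 3 to 6 h the values were 0.34 (SE 0.34, FDR = 0.536) in WT and 0.68 (SE 0.33, FDR = 0.154) in Aim2-/- cells, the latter with a blocked FDR of 0.00205.

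RefSeq promoter windows, 250 bases before to 50 after a start site (GRCm38.p6), matched 6 of the 9 genes with 8 windows: Slc3a2, Slc1a4, Slc7a1, Slc7a6, Slc38a2 and Slc43a1. They were searched on both strands for CACGTG, the E-box that MYC binds, and for TGATGNAA, the C/EBP-ATF element that ATF4 binds, since both factors are known to act on transporter genes. The E-box stood in 1 of these windows, that of Slc43a1, at 64 bases before the start, and in 7.17% of all 32544 windows of that length. The C/EBP-ATF element stood in 1, that of Slc1a4, on the reverse strand from 4 bases before the start, and in 3.91% of all windows. The 2 motifs did not overlap in any of these windows, and a match is a description of the letters and not a site of binding. The stretches around the 2 matches are shown 5′ to 3′ on the strand of the gene, with the match in capitals, because they are the 2 matches found and belong to the 2 least abundant of the 9 messenger RNAs.
Slc43a1, chr2:84840199-84840324, plus strand: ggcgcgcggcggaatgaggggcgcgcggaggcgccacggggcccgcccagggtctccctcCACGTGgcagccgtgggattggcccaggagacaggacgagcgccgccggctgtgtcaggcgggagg
Slc1a4, chr11:20332704-20332777, minus strand: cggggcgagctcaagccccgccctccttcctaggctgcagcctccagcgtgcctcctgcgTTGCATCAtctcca

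Counted over the 9 genes, 6 were called in WT cells at 3 h (5 up, 1 down), where 32.6% of all genes tested were called, 6 at 6 h (5 up, 1 down; 51.1% of all genes) and 8 at 24 h (6 up, 2 down; 71.4%). Of the Aim2-/- values, 5 were called at 3 h (3 up, 2 down; 30.7% of all genes), 6 at 6 h (4 up, 2 down; 51.2%) and 7 at 24 h (5 up, 2 down; 70.3%). The 24 h shares thus stood near a background in which most genes were called. Their median log2 change was 0.34, 0.71 and 0.96 in WT cells at 3, 6 and 24 h, beside 0.015, 0.019 and -0.013 over all genes tested. The Aim2-/- medians were 0.28, 0.14 and 0.56, beside 0.017, 0.078 and 0.030. The 3 comparisons of a genotype share its 0 h libraries. The WT count at 3 h was 3 without the mouse labelled WT 1 or without mouse WT 3, and the Aim2-/- count at 3 h was 3 without the 0 h library of mouse 1.

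In the steps between stimulated times, 5 of the 9 were called from 3 to 6 h in WT cells (4 up, 1 down; 25.7% of all genes tested) and 1 in Aim2-/- cells (Slc38a2, lower; 23.3%). From 6 to 24 h, 4 were called in WT cells (Slc43a1 higher, and Slc3a2, Slc1a5 and Slc7a1 lower; 57.6%) and 3 in Aim2-/- cells (Slc7a5 and Slc38a1 higher, Slc3a2 lower; 54.3%). With the mouse as a block these counts were 7 and 5 from 3 to 6 h and 7 and 3 from 6 to 24 h. The share of all genes called with the block is not given here, so these counts have no background beside them. The WT count from 3 to 6 h was 3 without the mouse labelled WT 1, 1 without mouse WT 3 or without the 3 h library of mouse 4, 2 without the 6 h library of mouse 3 and 0 without mouse WT 4, and the Aim2-/- count was 2 without the 3 h library of mouse 4 or the 6 h library of mouse 1. The 9 genes summed to 1848 ± 47.6 CPM (SD, n = 3) at 0 h and 2819.5 ± 146 CPM at 6 h in WT cells. The Aim2-/- sums were 2026 ± 44.0 and 2263 ± 226 CPM.

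**Figure D3:**
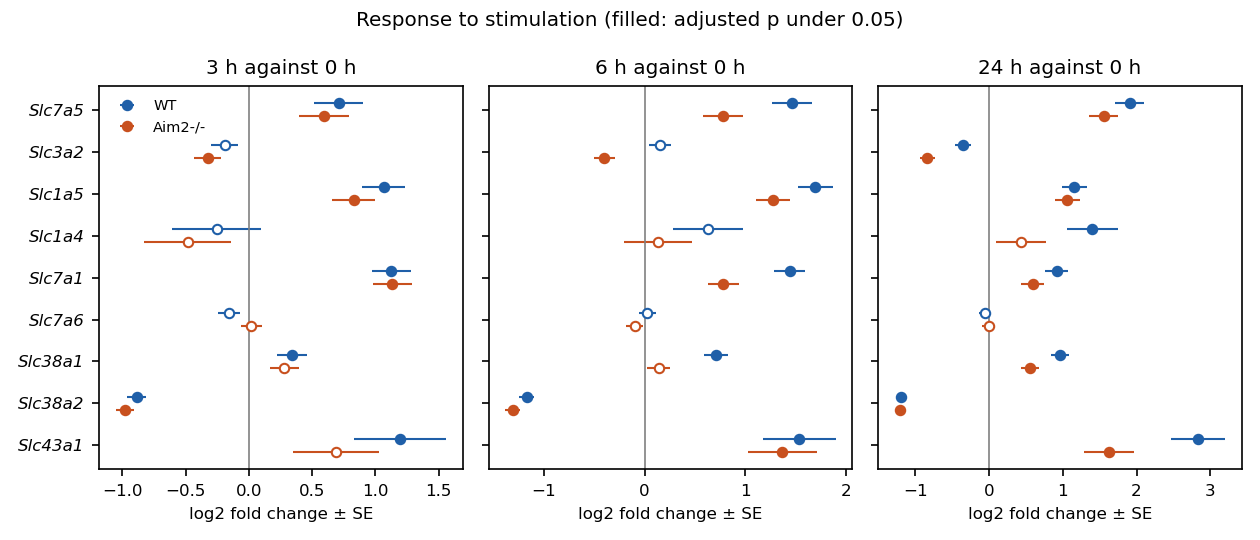
Log2 fold change against 0 h of the same genotype, with its standard error, for each of the 9 genes at 3, 6 and 24 h (WT blue, Aim2-/- orange); filled points have an FDR under 0.05 in edgeR's quasi-likelihood test. Slc38a2 is lower at all 3 times in both genotypes, and Slc3a2 is called lower at 3 times in Aim2-/- and at 24 h in WT cells.

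In unstimulated cells, 2 of the 9 genes were higher in Aim2-/- than in WT mice, where 5.23% of all genes tested were called. Slc3a2, the heavy chain, showed a log2 difference of 0.54 (SE 0.11, FDR = 0.0102), a fold of 1.45, and every Aim2-/- library exceeded every WT one. Slc43a1 was higher by 1.38 (SE 0.36, FDR = 0.0349), a fold of 2.61, again with no overlap. Slc7a6 did not overlap either but missed the threshold, at -0.15 (SE 0.084, FDR = 0.289), and the other 6 overlapped, with log2 values from -0.100 (Slc38a2) to 0.76 (Slc1a4, FDR = 0.185). The share of all genes tested that did not overlap was not counted, at this or any later time. Without the mouse labelled WT 1, Slc3a2 was higher by 0.50 (FDR = 0.0294), Slc43a1 by 1.54 (0.0490) and Slc1a4 by 1.25 (0.0246). The 2 calls depended on other mice too: neither gene was called without Aim2-/- mouse 1 (FDR = 0.0555 for Slc3a2 and 0.163 for Slc43a1), WT mouse 3 (0.131 and 0.184) or WT mouse 4 (0.0596 and 0.156), or without the 0 h library of Aim2-/- mouse 1 (0.0991 and 0.21) or WT mouse 3 (0.0705 and 0.123). In addition, Slc43a1 was not called without Aim2-/- mouse 4 (0.119), its 0 h library (0.0836) or that of WT mouse 4 (0.11), nor by voom (0.134) or with only the libraries compared (0.0553).

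At 3 h none of the 9 was called between the genotypes by edgeR, where 0.294% of all genes tested were called. Slc3a2, Slc38a2 and Slc43a1 had an unadjusted p under 0.05, as did 2350 of all 15325 genes tested. Of the 9, voom called none and DESeq2 called 1, Slc3a2 (FDR = 0.0234). All 3 Aim2-/- libraries still exceeded all WT ones in Slc3a2, at 0.40 (SE 0.11, FDR = 0.1), and lay below them in Slc38a2, at -0.19 (SE 0.074, FDR = 0.231). Without Aim2-/- mouse 2, or without its 3 h library, 2 genes were higher in Aim2-/- cells: Slc3a2 (0.0196 without the mouse) and Slc43a1 (0.00466). Without the mouse labelled WT 1 none was called, with an FDR of 0.0782 for Slc3a2.

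At 6 h, 6 of the 9 genes were called, where 15.8% of all genes tested were called; 5 were lower and 1 higher in Aim2-/- cells. The 2 light chains, CAT1 and both SNAT genes were the lower ones, with log2 differences of -0.69 (SE 0.15, FDR = 0.0107) for Slc7a1, -0.64 (SE 0.19, FDR = 0.0340) for Slc7a5, -0.47 (SE 0.12, FDR = 0.0171) for Slc38a1, -0.27 (SE 0.084, FDR = 0.0366) for Slc7a6 and -0.24 (SE 0.074, FDR = 0.0368) for Slc38a2. Slc43a1 was higher by 1.21 (SE 0.34, FDR = 0.0247). None of these 6 genes overlapped between the genotypes at 6 h, a pattern that was not counted over all genes tested. The other 3 of the 9 did overlap. Slc3a2, which had been higher at 0 h, was at -0.013 (SE 0.11, FDR = 0.946), Slc1a5 at -0.26 (SE 0.17, FDR = 0.283) and Slc1a4 at 0.27 (SE 0.34, FDR = 0.605). Without the mouse labelled WT 1, 3 genes were called, namely Slc7a1 (-0.62, FDR = 0.0324), Slc38a2 (-0.29, 0.0426) and Slc43a1 (1.46, 0.0338), while Slc7a5 (0.0844), Slc38a1 (0.0564) and Slc7a6 (0.107) were not. Other mice decided the count as well. It was 0 without Aim2-/- mouse 1, its 6 h library alone, or WT mouse 4. It was 1, Slc7a1, without Aim2-/- mouse 4, WT mouse 3 or the 6 h library of WT mouse 3, 2 without the 6 h library of Aim2-/- mouse 4, 3 without that of WT mouse 4 and with only the libraries compared, 4 without that of the mouse labelled WT 1 and with scaling to library totals, and 6 without Aim2-/- mouse 2. Scaling to library totals ended the calls of Slc7a6 (FDR = 0.0575) and Slc38a2 (0.0769). The share of all genes called in each of these fits is not given here. The directions held in all of these fits: across those that left out a library or a mouse, the log2 difference of Slc7a5 lay between -0.82 and -0.48 and that of Slc7a1 between -0.79 and -0.60.

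At 24 h none of the 9 was called, where 0.666% of all genes tested were called, all 9 overlapped between the genotypes, and neither voom nor DESeq2 called any. Slc7a1, at -0.36 (SE 0.15, FDR = 0.19), and Slc38a1, at -0.30 (SE 0.12, FDR = 0.166), had an unadjusted p under 0.05. Over all genes tested, 3134 of 15325 had one. Slc7a1 and Slc38a1 were both called lower without Aim2-/- mouse 2 (0.0156 and 0.0103), which had the highest Aim2-/- level of each at that time, or without its 24 h library. Without the mouse labelled WT 1 none was called.

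**Figure D4:**
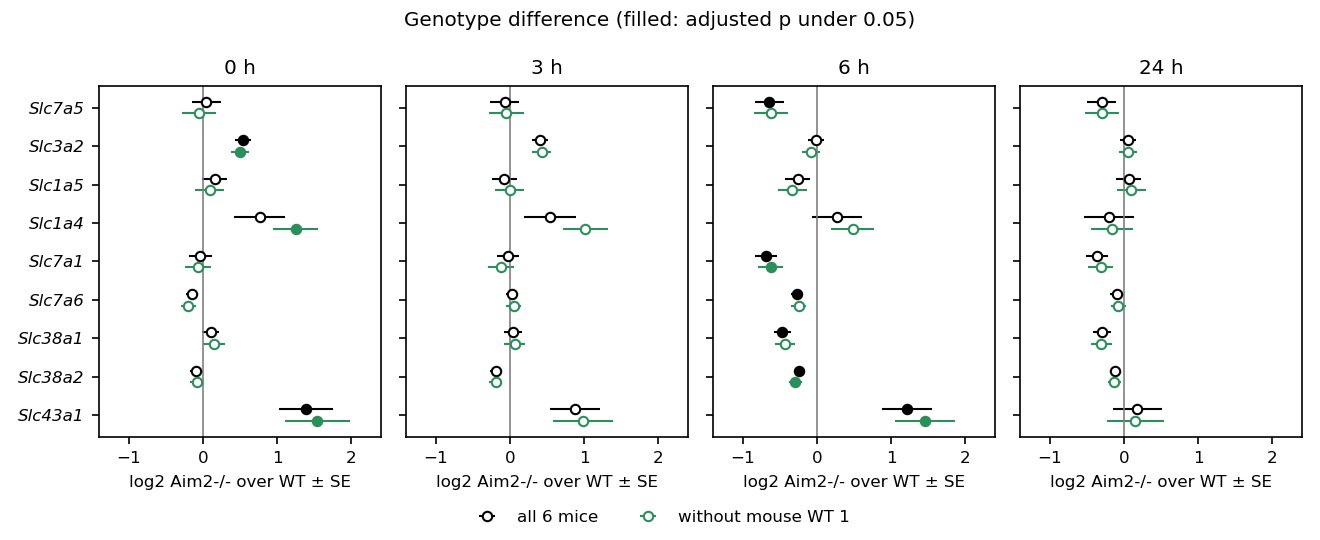
Log2 difference of Aim2-/- against WT, with its standard error, for each of the 9 genes at 0, 3, 6 and 24 h, with all 6 mice (black) and without the mouse labelled WT 1 (green); filled points have an FDR under 0.05 in edgeR's quasi-likelihood test. Slc3a2 and Slc43a1 are higher in Aim2-/- cells at 0 h, and 5 genes are lower and Slc43a1 is higher at 6 h with all mice.

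Markers of other blood cells also differed between the genotypes. At 0 h, 7 myeloid markers (Lyz2, Csf1r, Itgam, Adgre1, Cd68, S100a8 and S100a9) summed to 30.6 to 55.2 CPM in WT and 99.1 to 351 CPM in Aim2-/- libraries, and 4 basophil and mast cell markers (Cpa3, Mcpt8, Ms4a2 and Fcer1a) to 3.75 to 5.70 and 25.1 to 49.4 CPM. The 6 B cell markers summed to 8.37 to 10.2 and 16.2 to 42.3 CPM, the 3 megakaryocyte markers to 11.0 to 20.2 and 27.4 to 44.7 CPM, and the 7 erythroid markers to 8.72 to 74.1 and 23.3 to 365 CPM, while the 2 CD8 T cell and 3 NK cell marker sums overlapped between the genotypes. Every marker of these lists had over 3 counts in at least 1 library of each genotype at 0 h, with exceptions in WT cells. These were 1 B cell and 1 basophil and mast cell marker. At 6 h the erythroid sums again overlapped between the genotypes and the other 4 did not: they were 21.4 to 46.2 and 57.6 to 215 CPM for myeloid, 5.60 to 10.2 and 39.3 to 88.5 for basophil and mast cell, 7.01 to 11.9 and 15.9 to 46.4 for B cell, 11.2 to 13.9 and 23.3 to 50.8 for megakaryocyte and 8.72 to 68.8 and 24.6 to 530.4 for erythroid markers, in WT and Aim2-/- libraries respectively. In Aim2-/- mice the myeloid, erythroid and basophil and mast cell sums were highest in mouse 1 and lowest in mouse 2 at 0 and at 6 h. Slc43a1 had the same order at each of the 4 times, mouse 1 above mouse 4 above mouse 2, and Slc7a5, Slc7a1 and Slc38a1 had the opposite order at 6 h. The remaining genes called lower at 6 h had neither order. Slc38a2 was highest in mouse 1 (225, 211 and 203 CPM in mice 1, 2 and 4), and Slc7a6 was highest in mouse 4 (109.8, 123 and 125 CPM). Slc3a2 was also highest in mouse 1 and lowest in mouse 2 at 0 h. In Slc43a1, mouse 2 lay above all WT mice at 0 h (3.50 against at most 2.55 CPM) and at 6 h (8.46 against at most 8.03 CPM), and below all of them at 3 h (4.08 against at least 4.25 CPM) and at 24 h (13.2 against at least 14.0 CPM). The part of these markers in the genotype differences was not tested.

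Whether the response to stimulation itself differed between the genotypes was tested by the interaction of genotype and time. None of the 9 was called by edgeR at 3, 6 or 24 h, where 0, 0.0261 and 0% of all genes tested were called. At an unadjusted p under 0.05 there were 0, 4 and 3 of the 9, beside 653, 2019 and 1825 of all 15325 genes tested. The 4 at 6 h were Slc7a5 with -0.69 (SE 0.28, FDR = 0.28), Slc3a2 with -0.55 (SE 0.15, FDR = 0.109), Slc7a1 with -0.65 (SE 0.22, FDR = 0.19) and Slc38a1 with -0.57 (SE 0.17, FDR = 0.138), all with a lower response in Aim2-/- cells. The 3 at 24 h were Slc3a2 with -0.48 (SE 0.15, FDR = 0.211), Slc38a1 with -0.40 (SE 0.17, FDR = 0.335) and Slc43a1 with -1.21 (SE 0.49, FDR = 0.327). With the mouse as a block, 3 genes were called at 6 h, Slc3a2 (FDR = 0.0317), Slc38a1 (0.0284) and Slc7a1 (0.0468), and 1 at 24 h, Slc43a1 (0.0206). DESeq2 called 2 at 6 h, Slc3a2 (0.0160) and Slc38a1 (0.0454), and voom called none. Without any 1 mouse or library no gene was called at 3 or 6 h, and at 24 h Slc43a1 was called without Aim2-/- mouse 2 (0.0471). The fitted response of Slc43a1 at 24 h was smaller in Aim2-/- cells, which began from a higher level. Without the mouse labelled WT 1 the interaction at 6 h was -0.58 (FDR = 0.21) for Slc3a2, -0.56 (0.417) for Slc7a1 and -0.58 (0.284) for Slc38a1.

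The 9 genes belong to a larger set of carriers. Of 45 other amino acid transporter genes on a list made from general knowledge, 28 were tested and 6 had no count in any library. This list and that of the enzymes below were made with earlier results of these data known. In WT cells 1 of the 28 was higher and 9 were lower at 3 h (32.6% of all genes tested were called in either direction), 5 and 11 at 6 h (51.1%), and 5 and 12 at 24 h (71.4%). The Aim2-/- counts were 1 and 7 (30.7%), 6 and 10 (51.2%), and 6 and 13 (70.3%). At 24 h the share of these carriers called was thus below or near that of all genes. Their median log2 change at 24 h was -0.26 in WT and -0.15 in Aim2-/- cells, and -0.26 and -0.22 over the 22 and 23 genes with over 3 counts on average in both groups, beside -0.013 and 0.030 over all genes tested. Among those with at least 5 CPM in the higher group, the glycine carrier gene Slc6a9 went from 0.945 ± 0.375 CPM (SD, n = 3) at 0 h to 8.38 ± 0.895 at 24 h in WT cells, a rise of 3.14 (SE 0.53, FDR = 2.14e-05). Slc16a10, which encodes the carrier of aromatic amino acids TAT1, went from 17.7 ± 5.92 to 62.9 ± 6.96 CPM. The largest falls among them were in Slc43a2, which encodes LAT4, a relative of LAT3, from 94.8 ± 6.17 to 18.9 ± 2.11 CPM (log2 value -2.33, SE 0.24, FDR = 1.72e-08), and in Slc38a6, from 16.9 ± 2.14 to 4.54 ± 1.31 CPM. The remaining 3 genes named by the size of their fall were Ctns, which encodes the lysosomal cystine exporter cystinosin and fell by 1.47 (SE 0.13, FDR = 1.02e-09), Slc38a9, which encodes an arginine sensor of the mTORC1 pathway (log2 value -1.43, SE 0.14, FDR = 7.14e-09), and Slc36a1, which encodes the proton-coupled carrier PAT1 (log2 value -1.42, SE 0.15, FDR = 2.69e-08).

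Of 19 enzymes of amino acid handling, 18 were tested. In WT cells 4 were higher and 7 lower at 3 h (32.6% of all genes called), 8 and 6 at 6 h (51.1%), and 10 and 4 at 24 h (71.4%), and in Aim2-/- cells 4 and 8 (30.7%), 7 and 6 (51.2%), and 10 and 6 (70.3%). The WT count at 24 h stood near the share of all genes. Their median log2 change at 24 h was 0.61 in WT and 0.94 in Aim2-/- cells, and 0.69 and 1.05 without the 1 gene at or below 3 counts. Bcat1, the cytosolic transaminase of branched-chain amino acids, rose from 2.68 ± 0.388 to 194 ± 13.1 CPM by 24 h in WT cells (log2 value 6.18, SE 0.33, FDR = 9.55e-13). Psat1, of serine synthesis, rose from 32.3 ± 4.31 to 506 ± 31.7 CPM, and Asns, asparagine synthetase, from 3.47 ± 1.34 to 38.8 ± 3.28 CPM. Pycr1, of proline synthesis, and Gpt2, the mitochondrial alanine transaminase, rose by 3.74 (SE 0.31, FDR = 6.07e-10) and 2.59 (SE 0.33, FDR = 5.22e-07). Among the falls were those of Bckdha, a subunit of the complex that degrades branched-chain ketoacids (log2 value -1.58, SE 0.088, FDR = 1.59e-12), of Gls2, a glutaminase (log2 value -0.82, SE 0.20, FDR = 8.30e-04), and of Glul, glutamine synthetase (log2 value -0.58, SE 0.11, FDR = 1.11e-04).

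Between the genotypes, 5 of the 18 enzyme genes were higher in unstimulated Aim2-/- cells and none was lower, and 1 of the 28 other transporters was higher (Slc7a8) and 1 lower (Slc38a6), where 5.23% of all genes tested were called. These genes were named after their values were seen. Pycr1 measured 0.710 ± 0.124 CPM (SD, n = 3) in WT and 2.76 ± 0.511 in Aim2-/- cells, a difference of 1.95 (SE 0.30, FDR = 0.00245), and without the mouse labelled WT 1 it was called as well (2.04, FDR = 0.00409). Asns measured 3.47 ± 1.34 and 11.3 ± 4.55 CPM (log2 value 1.70, SE 0.36, FDR = 0.0149; without that mouse 2.06, FDR = 0.00707), and Got1, an aspartate transaminase, 250.3 ± 44.4 and 417 ± 39.6 CPM (log2 value 0.74, SE 0.13, FDR = 0.00567; without that mouse 0.64, FDR = 0.0106). Gls2 (log2 value 0.75, SE 0.19, FDR = 0.0320) kept its call without that mouse, while Aldh18a1, of proline synthesis (log2 value 0.28, SE 0.068, FDR = 0.0251), Slc7a8 and Slc38a6 did not. Left out in turn, the 6 mice kept the 0 h call in 5 fits for Pycr1, 5 for Got1, 2 for Asns and 2 for Gls2. At 6 h the lists were called at about the share of all genes (15.8%). Higher in Aim2-/- cells at that time were 3 enzymes, of which Gls2, at 5.16 ± 1.16 and 11.7 ± 1.44 CPM (log2 value 1.18, SE 0.20, FDR = 0.00476), was called without any 1 of the 6 mice. Asns (log2 value 1.33, SE 0.34, FDR = 0.0177) and Bckdha (log2 value 0.32, SE 0.086, FDR = 0.0206) kept their 6 h call in 2 of the 6 fits each, with the mouse labelled WT 1 left out among them. At 6 h Slc7a7, Slc7a8 and Slc6a15 were higher in Aim2-/- cells, the last at under 1 CPM in all libraries, and Slc6a6, of taurine uptake, was lower (119 ± 14.7 and 82.7 ± 10.6 CPM, log2 value -0.52, SE 0.14, FDR = 0.0231); without the mouse labelled WT 1, Slc7a7 alone of these 4 was called (FDR = 0.0218). At 3 and 24 h, where 0.294 and 0.666% of all genes were called, edgeR called no gene of either list between the genotypes. An unadjusted p under 0.05 was found at 3 h for 7 of the 28 other transporters and 6 of the 18 enzymes. Over all genes tested it was found for 2350 of 15325. At 24 h the counts were 9 and 2, beside 3134 of 15325 over all genes tested.

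**Figure D5:**
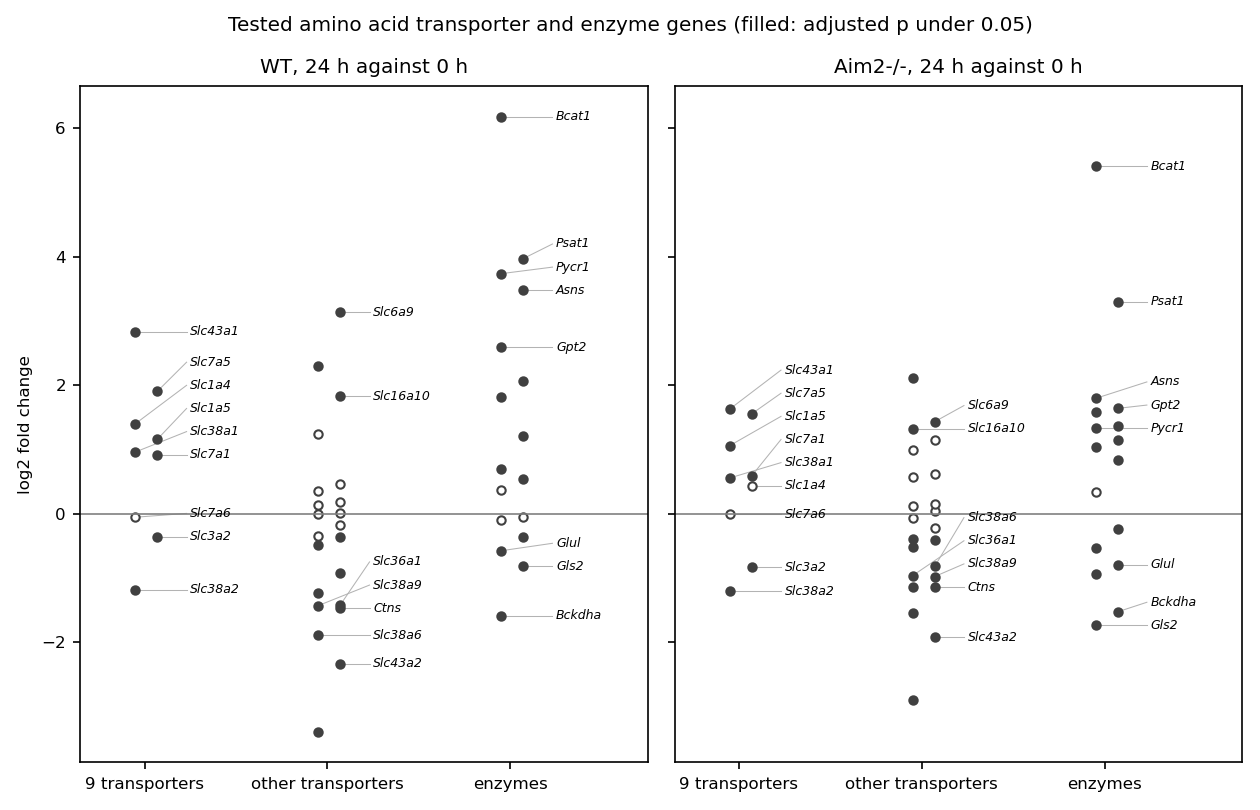
Log2 fold change at 24 h against 0 h of each tested gene among the 9 transporters, the 28 other amino acid transporters and the 18 enzymes, in WT (left) and Aim2-/- cells (right); each point is a gene, sideways position only separates points, filled points have an FDR under 0.05, and the 9 genes and those of the lists that the text names carry their symbols. Genes at or below 3 counts on average in a group are left out. Bcat1 and Psat1 lie highest among the labelled enzymes, and Slc38a2 is the lowest of the 9 transporters.

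Of the transcription factors known to act on these carriers, Myc, which drives growth genes, rose in WT cells by 2.60 (SE 0.20, FDR = 7.21e-09) at 3 h, 3.22 (SE 0.21, FDR = 1.32e-10) at 6 h and 3.11 (SE 0.21, FDR = 2.05e-11) at 24 h, and in Aim2-/- cells by 2.01 (SE 0.20, FDR = 2.52e-07), 2.40 (SE 0.20, FDR = 6.56e-09) and 2.68 (SE 0.20, FDR = 1.95e-10). At 6 h it was lower in Aim2-/- cells, with a log2 difference of -0.59 (SE 0.19, FDR = 0.0405), a call that was lost without the mouse labelled WT 1 (-0.69, FDR = 0.0504) and held in 1 of the 6 fits that left out a mouse. Atf4, which answers amino acid shortage and whose activity is set largely by translation, had values of 0.13 (SE 0.13, FDR = 0.483), 0.46 (SE 0.13, FDR = 0.00420) and 0.48 (SE 0.13, FDR = 0.00178) in WT cells and -0.059 (SE 0.13, FDR = 0.772), 0.39 (SE 0.13, FDR = 0.0143) and 0.29 (SE 0.13, FDR = 0.0461) in Aim2-/- cells. At 0 h the Atf4 difference between the genotypes was 0.30 (SE 0.13, FDR = 0.148).

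Across the 24 libraries, which share mice and stimulation times and are thus not independent, Slc7a5 and Slc38a1 were the 2 of the 9 whose log2 CPM went most alike (Pearson's r = 0.950), and Slc1a5 and Slc38a2 the most opposed (r = -0.892). Among 8697 genes with a mean of at least 10 CPM, those most like Slc7a5 were Rrp12, Ftsj3 and Naa25 (r from 0.988 to 0.990), and those most like Slc1a5 were Ipo4, Qtrt2 and Zfp593 (0.969 to 0.977). Slc7a1 was most like Pfkfb3, Ankrd28 and Lcp2 (0.957 to 0.970), Slc38a1 most like Eif4g1, Fasn and Mtdh (0.962 to 0.965), and Slc38a2, the falling gene, most like Ankrd50, Pip5k1c and Kctd10 (0.970 to 0.977). For Slc43a1 they were Pcyox1l, Tmem256 and Ctsz (0.951 to 0.965) and for Slc1a4 Lag3, Ddx28 and Ergic1 (0.881 to 0.903). Slc3a2 (Aebp2 and Srprb; 0.858 to 0.895) and Slc7a6 (Ivns1abp, Tent4b and Pom121; 0.717 to 0.834) had less similar neighbours. These correlations describe the libraries and carry no test.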

How the data were processed

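RNA was measured in 24 libraries of splenic CD4+ T cells from 6 mice. The authors deposited raw read counts per Ensembl gene, aligned to GRCm38 with STAR (per the labels, with no version); DESeq2 and edgeR are also named there. The library kit marks strand, and whether counting used it is not given in the sources used here, so antisense reads cannot be told apart. Symbols, positions and exon lengths came from GENCODE M21, which held 54409 of the 54446 identifiers, and no exon of another gene overlapped an exon of the 9 genes. Every per-sample column was used.

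Counts were tested in R 4.3.3 with edgeR 4.0.16 (quasi-likelihood F test, TMM, filterByExpr with a minimum count of 10, 1 mean per group, all 24 libraries), with Benjamini-Hochberg adjustment over 15325 genes in each of 17 comparisons; a gene was called at an adjusted p under 0.05. The biological coefficient of variation was 18.6%. Fold changes are log2, and depth limits only genes near 3 counts. Alternatives were RLE size factors, library totals, DESeq2 1.42.0, limma 3.58.1 (voom), other filters, the compared libraries alone, a block for the mouse or its number, and each library or mouse left out; a lone remaining sample never occurred, since 2 mice always remained. The same-mouse libraries deviated together (r from 0.139 to 0.567 over 36 pairs; from -0.432 to 0.0742 over 72 pairs of different mice of a genotype), and the labels tie them to 1 mouse, so the block is given where it changes a call. The labels do not say whether mice were processed together. Without the block, p-values measure the spread between libraries within a group, pooled over the 8 groups. That fit takes the 24 libraries as independent although they came from 6 mice, so its p-values do not measure the spread between mice alone. The code was tested on simulated data.

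The members and lists were chosen with earlier results of these data known. Named genes were the 9, Aim2, Myc, Atf4, up to 5 rises and 5 falls of each list in WT cells at 24 h with at least 5 CPM in the higher group, and the 3 genes most correlated with each of the 9 at a mean of at least 10 CPM; 1 such enzyme and 1 such correlated gene are not reported here. Leaving mice out of the list comparisons was chosen after seeing the data.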

Additional observations from a re-analysis of the deposited data

Results flagged for a closer look

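Slc3a2, the CD98 heavy chain gene, drew attention because its change from 0 to 6 h went opposite ways in the 2 genotypes: each of the 3 WT mice lay above its own 0 h level (ratios of 1.07, 1.19 and 1.07 for mice 1, 3 and 4) and each of the 3 Aim2-/- mice lay below (0.640, 0.903 and 0.757 for mice 1, 2 and 4). The difference between the responses was -0.55 on the log2 scale and was not called by edgeR's quasi-likelihood test (adjusted p = 0.109). Of 8 other settings, DESeq2 (0.0160) and edgeR with the mouse as a block (0.0317) called it and 6 did not. None of the 18 fits without 1 library or mouse called it, and without the mouse labelled WT 1, whose Aim2 level goes against its label, edgeR's adjusted p was 0.210. The WT change was itself not called (log2 value 0.15, edgeR's adjusted p = 0.247), and the Aim2-/- change was (-0.40, adjusted p = 0.00358). The genotypes were alike at 6 h (log2 difference -0.013, edgeR's adjusted p = 0.946) and differed at 0 h (0.54, adjusted p = 0.0102). That 0 h call was lost without Aim2-/- mouse 1, WT mouse 3 or WT mouse 4. All 9 genes were searched for such a pattern at 3, 6 and 24 h, and this was the only case found.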

How the results depend on the processing

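Of the 153 values of 1 gene in 1 comparison, 59 were called, and 35 of these kept their call in every alternative that was run. From 6 to 24 h in WT cells 7 were called in place of 4 with the mouse as a block and 7 with only the libraries compared. From 3 to 6 h in Aim2-/- cells 1 was called in the main fit, 2 each with library totals, voom and no filter, 5 with the mouse as a block and 0 with only the libraries compared. Between the genotypes the count at 0 h was 1 in place of 2 under voom and with only the libraries compared, that at 3 h was 1 under DESeq2, and that at 6 h was 3 in place of 6 with only the libraries compared. The interaction count was 2 under DESeq2 and 3 with the mouse as a block at 6 h, and 1 with the block at 24 h, in place of 0. Across the genotypes a mouse number marks no shared mouse (r from -0.165 to 0.268 over 8 pairs of 1 number at 1 time). With that number as a block the count was 3 before stimulation, 2 after 3 h, 6 after 6 h and 2 after 24 h.

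When each library and each mouse was left out in turn, WT counts ranged from 3 to 6 at 3 h, 6 to 7 after 6 h, 8 to 8 after 24 h, 0 to 6 from 3 to 6 h and 3 to 5 from 6 to 24 h. The Aim2-/- counts ranged from 3 to 5, 5 to 6, 6 to 7, 1 to 2 and 3 to 4 in the same order. Genotype counts ranged from 0 to 3 before stimulation, 0 to 2 at 3 h, 0 to 6 at 6 h and 0 to 2 after 24 h, and interaction counts from 0 to 0, 0 to 0 and 0 to 1.

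Scaling to library totals moved the median log2 change of all genes to 0.122 in WT and 0.133 in Aim2-/- cells at 3 h, 0.108 and 0.198 at 6 h, and 0.104 between the genotypes at 6 h. For the last, 55.6% of all called genes were higher in Aim2-/- cells with TMM, 47.3% with RLE and 64.9% with library totals. Signs changed in 9 further values, none of them called and all near 0: with library totals, Slc7a6 in Aim2-/- cells at 6 h (0.022) and 24 h (0.023), Slc7a1 between the genotypes at 3 h (0.00047), Slc3a2 between them at 6 h (0.040) and the Slc38a2 interaction at 24 h (0.021); Slc7a6 in WT cells at 6 h with RLE (-0.020) and DESeq2 (-0.020); Slc3a2 between the genotypes at 6 h with the number as a block (0.035); and the Slc7a1 interaction at 3 h with only the libraries compared (-0.024).

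Leaving out a library or mouse changed the sign of 25 values, none called with all libraries; their log2 ranges over the fits are given in brackets. Against 0 h these were Slc1a4 at 3 h and Slc7a6 at 6 h in WT cells (-0.74 to 0.20 and -0.059 to 0.080), and in Aim2-/- cells Slc7a6 (-0.052 to 0.070) at 3 h, Slc1a4 (-0.055 to 0.32) at 6 h and Slc7a6 (-0.076 to 0.015) at 24 h. Between stimulated times they were Slc38a2 (-0.069 to 0.0065) from 6 to 24 h in WT cells, and Slc3a2 (-0.21 to 0.075) from 3 to 6 h and Slc43a1 (-0.0054 to 0.47) from 6 to 24 h in Aim2-/- cells. Between the genotypes they were Slc7a5 (-0.093 to 0.12) and Slc7a1 (-0.12 to 0.021) at 0 h, Slc7a5 (-0.25 to 0.10), Slc1a5 (-0.28 to 0.090), Slc7a1 (-0.13 to 0.14), Slc7a6 (-0.051 to 0.081) and Slc38a1 (-0.038 to 0.12) at 3 h, Slc3a2 (-0.079 to 0.048) at 6 h and Slc43a1 (-0.037 to 0.33) at 24 h. Among the interactions they were Slc7a5 (-0.37 to 0.069), Slc1a4 (-0.69 to 0.26), Slc7a1 (-0.15 to 0.22) and Slc38a1 (-0.18 to 0.077) at 3 h, Slc43a1 (-0.41 to 0.096) at 6 h and Slc1a5 (-0.18 to 0.0076), Slc7a6 (-0.0039 to 0.12) and Slc38a2 (-0.075 to 0.082) at 24 h. The cause of these changes was not tested. Genes near the floor of 3 counts are the ones that depth limits, and none of the 9 was near it.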
